A study of Homo sapiens with 12 samples.

Results

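The genes described here are NEAT1, the long noncoding RNA on which the nuclear body called the paraspeckle is built, its neighbour MALAT1, also a long noncoding RNA, and the messenger RNAs of the proteins SFPQ, NONO, PSPC1, HNRNPK and RBM14. They were chosen by gene symbol, 7 of the 13820 genes in the count table, and all 7 were among the 12602 genes that passed a filter on low counts. Their identifiers in the table are ENSG00000245532 (NEAT1), ENSG00000251562 (MALAT1), ENSG00000116560 (SFPQ), ENSG00000147140 (NONO), ENSG00000121390 (PSPC1), ENSG00000165119 (HNRNPK) and ENSG00000239306 (RBM14). NEAT1 led the choice because its drug response differed by shRNA: the response in the knockdown cells minus that in the control cells was 0.50 on the log2 scale (SE 0.09). NEAT1 was 1 of 3 genes of the whole table past the threshold in that comparison. The others were the ribosomal RNAs RNA18S5 and RNA28S5. Just outside it lay CCDC110 with a difference of 0.90, larger than that of NEAT1, CABLES1 with 0.40 and MT-CO1 with -0.35. NEAT1's drug responses, and its knockdown effect within either treatment, are therefore given as descriptions with no test.

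All 12 libraries came from the mantle cell lymphoma cell line Z-138, and all cells were cultured with doxycycline. They formed 4 groups of 3 replicates: cells with a control shRNA in DMSO, cells with a control shRNA under 3 µM ibrutinib plus 3 µM venetoclax, cells with an shRNA knockdown of SMARCA4 in DMSO, and knockdown cells under the same drug pair. Ibrutinib inhibits the kinase BTK, venetoclax inhibits the survival protein BCL2, and SMARCA4 encodes BRG1, a motor subunit of the chromatin remodeller SWI/SNF. The series concerns SWI/SNF loss and resistance to this drug pair. The labels do not say that replicates came from separate cultures, so the p-values reflect only how far these libraries spread, which may be technical. How long the drug was applied and how many shRNA constructs were used is not given in the sources used here, and an effect of the construct and of SMARCA4 loss cannot be told apart. Libraries were 3′ tag libraries (Lexogen QuantSeq), in which each count is a read near a poly(A) tail or another A-rich stretch, so levels are not compared between genes.

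Paraspeckles assemble on the long isoform of NEAT1, which the proteins SFPQ, NONO and PSPC1 coat. These 3 proteins form the DBHS family and work as dimers with each other. HNRNPK favours the long NEAT1 isoform over the short one, RBM14 is needed for the body to form, and SWI/SNF proteins including BRG1 have also been placed in it. MALAT1, the neighbour of NEAT1 in the genome, resides in nuclear speckles, where splicing factors are stored. The short NEAT1 isoform has a poly(A) tail, while the long isoform and MALAT1 are cut by RNase P and end in a triple helix with no poly(A) tail.

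The ends of these RNAs and an A-run near the end of MALAT1 are shown because A-rich stretches and tails are where a 3′ tag library can start a read. The gene counts do not say which of them was read. Sequences are from GENCODE transcripts, 5′ to 3′, with positions counted from 1 at the transcript's first base. Of 8 NEAT1 transcripts, the long isoform of 22743 bases was the only one with runs of 8 or more A. It held 6 of them. The first stretch printed is its last 100 bases, with the A-tracts of the end in capitals. The second is the last 60 bases of a short isoform of 2994 bases, with the polyadenylation signal in capitals. The third covers bases 8307 to 8439 of the MALAT1 transcript of 8708 bases, with its longest A-run and the runs of 5 T in capitals, and it runs on past the RNase P cut that ends the mature RNA.
NEAT1 long isoform, end: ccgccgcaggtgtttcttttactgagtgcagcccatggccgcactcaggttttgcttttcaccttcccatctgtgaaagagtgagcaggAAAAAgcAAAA
NEAT1 short isoform, end: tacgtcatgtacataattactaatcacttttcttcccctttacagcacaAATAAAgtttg
MALAT1, A-run near the end: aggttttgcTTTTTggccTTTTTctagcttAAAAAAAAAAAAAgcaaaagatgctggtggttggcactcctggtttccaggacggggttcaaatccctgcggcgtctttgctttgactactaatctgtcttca
NEAT1 reads cannot be assigned to an isoform here, and for MALAT1 sense and antisense reads cannot be told apart, because the strand setting of the counting is not given in the sources used here. RBM14 shares sequence with RBM4 in readthrough transcripts, and SFPQ, NONO and HNRNPK have processed pseudogenes, so reads of these could be split in the counting.

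Library totals ran from 7279503 to 22528537 counts, and 11 of the 12 were at most 10151679. The deepest was knockdown DMSO replicate 3. SMARCA4 lay at 577 ± 21.6 CPM (the read count normalised to the library's TMM-scaled total, SD, n = 3) in control cells in DMSO and at 170 ± 9.67 CPM in knockdown cells in DMSO. With the drug pair, control cells had 610 ± 28.2 and knockdown cells 175 ± 8.66 CPM. Averaged over treatments, the knockdown lowered SMARCA4: it fell by 1.78 (log2, SE 0.04, edgeR quasi-likelihood test, adjusted p = 7.05e-26), a change of -71.0%. Of 9 B-cell and mantle cell lymphoma markers 8 had a row, with CCND1 at 26647 to 81525 counts and SOX11 at 2686 to 14656. Of 7 T and NK markers 2 had a row, and their summed level was 14.9 to 19.1 CPM in control and 1.53 to 3.43 CPM in knockdown libraries. No myeloid marker of 6 had a row. Of 6 stromal and epithelial markers only COL1A1 had one. On the same unscaled measure it lay at 19.5 to 25.5 in control and 14.5 to 15.7 in knockdown libraries. With the knockdown averaged over treatments 5 of the 8 B-cell markers fell and 1 rose, where 22.6% of all genes were lower and 21.7% higher. These markers move with the knockdown comparisons below, and their part in them was not tested. The column of the control-shRNA drug group's replicate 1 names no treatment and was assigned because the other 11 columns left only that sample. Values without this library are given where they differ in call.

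NEAT1 was highest in control cells in DMSO, with 285, 299 and 271 CPM in the 3 libraries. Under the drug pair the control cells had 170, 195 and 184 CPM. The lowest DMSO library thus lay above the highest drug library, and the group means were 285 ± 14.1 and 183 ± 12.4 CPM (SD, n = 3). Knockdown cells had 239, 210 and 222 CPM in DMSO and 214, 215 and 178 CPM under drug, with means of 223 ± 14.7 and 202 ± 21.3. These groups overlapped, because the lowest DMSO library lay below 2 of the 3 drug libraries. In order of their means the groups ran from control in DMSO through knockdown in DMSO and knockdown under drug to control under drug. Only the first stood clear of its neighbour: each of the other pairs of neighbours had overlapping libraries. A lower level per cell and a smaller share of cells with the RNA cannot be told apart in bulk libraries.

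**Figure D1:**
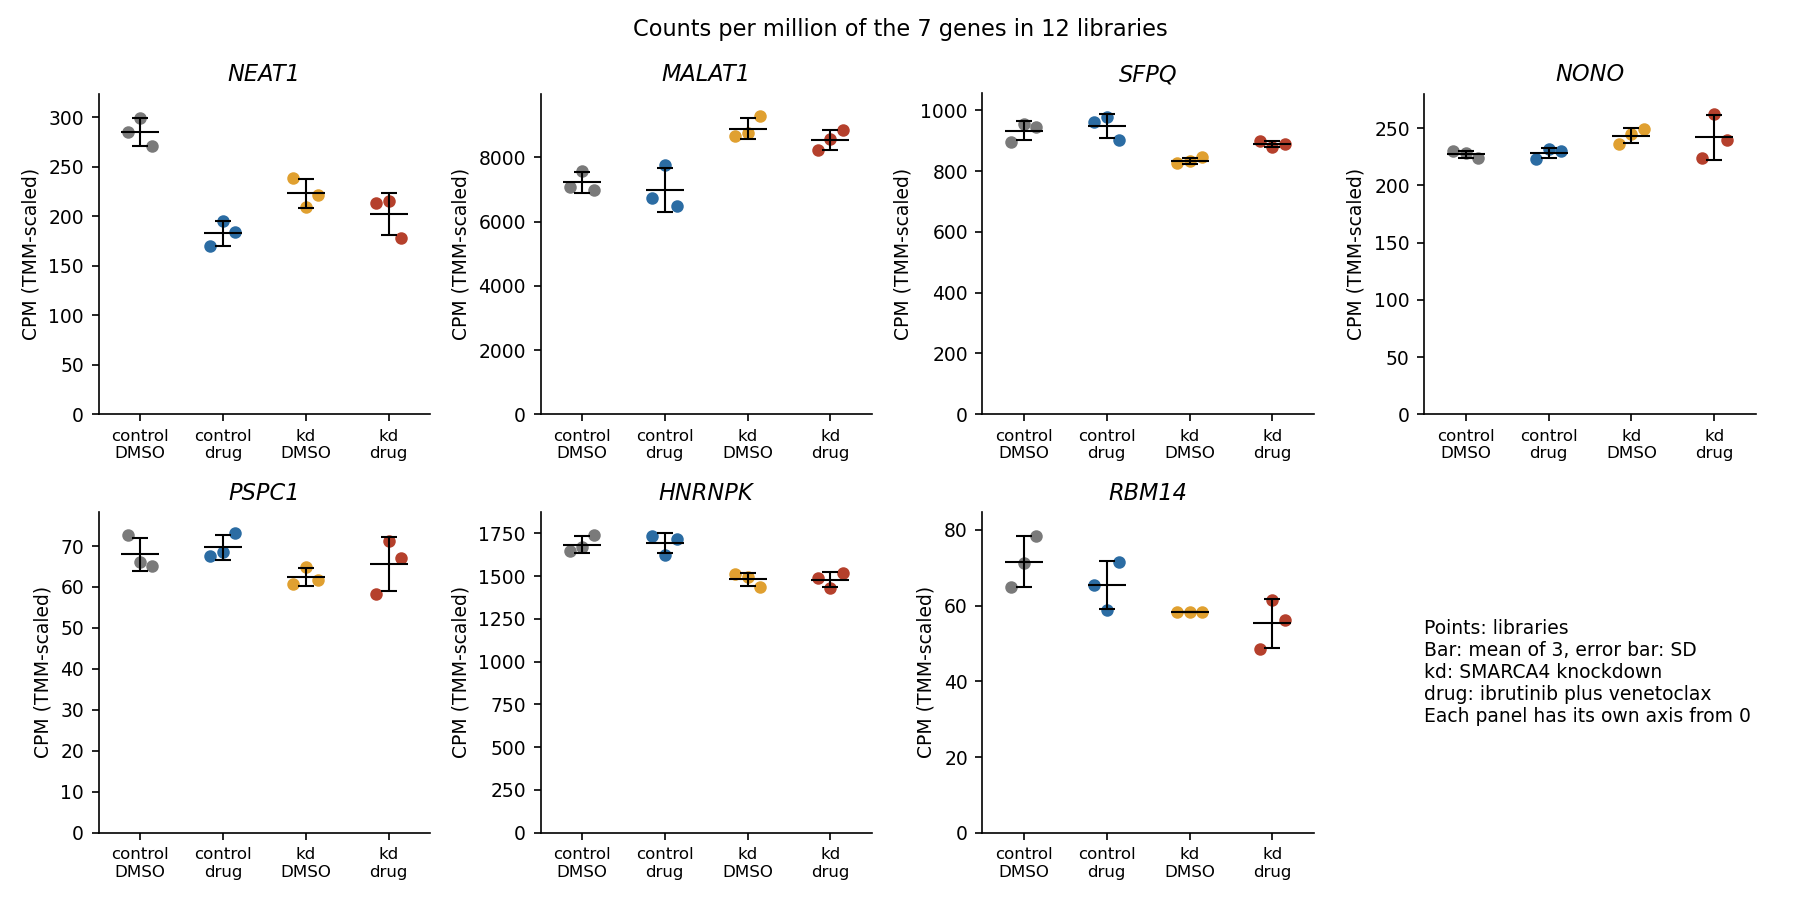
CPM (TMM-scaled, vertical axes from 0, each panel with its own scale) of the 7 genes in the 4 groups. Points are libraries, horizontal bars the mean of 3 and error bars the SD. NEAT1 stands highest in control cells in DMSO, while MALAT1 and HNRNPK separate all 6 knockdown from all 6 control libraries, in opposite directions. The share of all genes that separate in this way is not given here.

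As fold changes, the drug difference of NEAT1 was -0.64 on the log2 scale in control cells (SE 0.07, 95% interval -0.78 to -0.50), a change of -35.8%. In knockdown cells it was -0.14 (SE 0.07, interval -0.28 to -0.01), a change of -9.51%. Neither interval allows for the choice of NEAT1 by these values or for the number of genes, so neither serves as a test. The knockdown difference was -0.35 in DMSO and 0.14 under drug, with an SE of 0.07 each. The smaller differences moved with single libraries. The drug difference in knockdown cells was -0.057 without knockdown drug replicate 3 and -0.095 without knockdown DMSO replicate 1, and ran to -0.19 over the other removals. The knockdown difference under drug was 0.23 without knockdown drug replicate 3, 0.096 without the library assigned by elimination, and 0.23 with library totals. These 4 differences share groups with each other and restate the same 4 means. Counting error was small beside them: NEAT1 had 1459 to 4997 counts per library, a counting error of 1.41% to 2.62%. Without the library whose column names no treatment, and without each other library in turn, NEAT1's difference between the responses stayed between 0.45 and 0.58. Its place past the threshold did not hold: under 12 of 21 alternatives no gene with a positive difference passed, so NEAT1 did not. These were 8 of the 12 removals of a library, the one assigned by elimination among them, the filter at 5 CPM in 3 libraries, the replicate block, and both removals of RNAs without a tail. All these refits use the libraries that selected NEAT1, so they describe the processing and are no separate support. A difference picked for its size can also be overstated.

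The knockdown effect averaged over treatments does not enter the difference that selected NEAT1, so it was tested. It was -0.10 (SE 0.05, interval -0.20 to -0.01), and did not pass the threshold of an adjusted p below 0.05 over all genes (edgeR quasi-likelihood test, adjusted p = 0.0762). It passed when the library assigned by elimination was left out (-0.13, adjusted p = 0.0373), without knockdown DMSO replicate 1 (-0.13, 0.0410) or without knockdown drug replicate 2 (-0.13, 0.0386). With a library left out the groups are unequal in size. The averaged effect is then no longer separate from the difference that selected NEAT1, so these passes describe the refits and are no test.

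Several RNAs without a poly(A) tail moved with the drug in the same libraries. RN7SK, the RNA that holds the elongation factor P-TEFb inactive, had 2.05 to 3.46 CPM in control DMSO and 22.4 to 29.5 CPM in control drug libraries. In knockdown libraries it had 4.48 to 5.54 CPM in DMSO and 21.8 to 31.2 CPM under drug. RN7SK rose with drug by 3.23 in control cells (SE 0.19, adjusted p = 1.87e-13) and by 2.51 in knockdown cells (SE 0.15, adjusted p = 1.47e-12). The difference between these responses was -0.73 (SE 0.27, adjusted p = 0.836), which did not pass. SCARNA2, a guide RNA of Cajal bodies, rose by 2.69 in control cells and 1.95 in knockdown cells, and its difference of -0.75 (SE 0.19, adjusted p = 0.274) did not pass either. Of 19 tested small RNAs without a tail, 7 rose and none fell with drug in control cells, and 5 rose and none fell in knockdown cells, where 1.29% of all genes passed in each. The share of counts on 18S and 28S ribosomal RNA was 9.15 ± 0.308% in control DMSO, 10.6 ± 0.330% in control drug, 10.5 ± 0.525% in knockdown DMSO and 8.36 ± 1.01% in knockdown drug libraries (SD, n = 3 each). With all these rows removed before scaling, NEAT1's difference between the responses was 0.49, against 0.50 with them. TMM scaling already limits the weight of extreme rows, so this removal had little room to move the value. RN7SK had 17 to 284 counts per library and SCARNA2 39 to 329, with counting errors of up to 24.3% and 16.0%. How far reads of RNAs without a tail follow their levels was not tested. The part of these RNAs in the NEAT1 values was not tested.

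**Figure D2:**
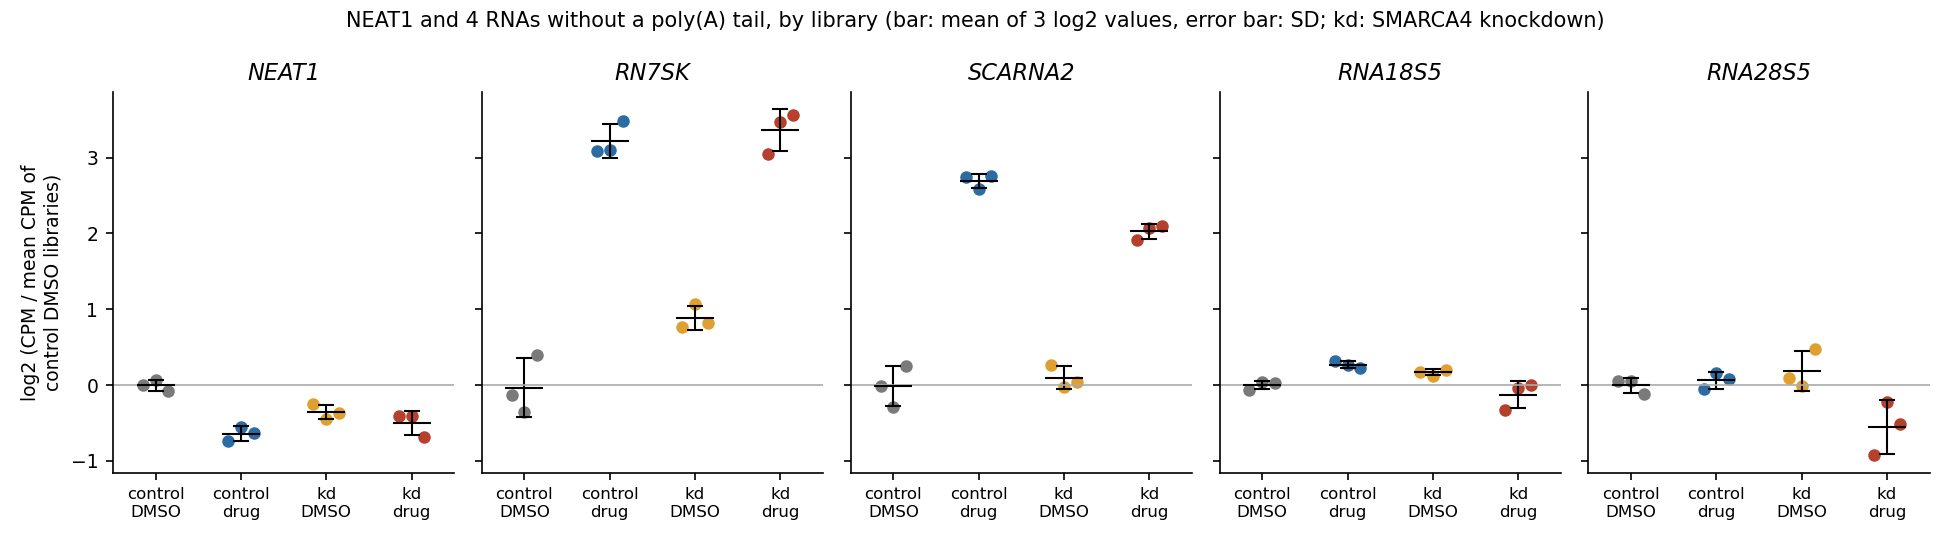
Log2 of CPM relative to the mean CPM of the control DMSO libraries, for NEAT1 and for 4 RNAs without a poly(A) tail, by group. Points are libraries, horizontal bars the mean of 3 log2 values and error bars the SD. RN7SK and SCARNA2 are high in the drug libraries of both shRNAs, and NEAT1 is low in every group but the first.

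MALAT1 rose with the SMARCA4 knockdown and showed no drug effect past the threshold. Its levels were 7088, 7587 and 6983 CPM in control cells in DMSO and 6726, 7766 and 6472 CPM in control cells under drug. Knockdown cells had 8670, 8741 and 9272 CPM in DMSO and 8229, 8554 and 8856 CPM under drug. Every knockdown library lay above every control library, and the share of all genes that separate in this way is not given here. MALAT1 rose by 0.30 averaged over treatments (SE 0.04, interval 0.22 to 0.38, adjusted p = 2.07e-07), a level 22.8% higher. The rise was 0.30 in DMSO (adjusted p = 6.95e-05) and 0.29 under drug (adjusted p = 0.00012), and its call held under every alternative processing tried. The drug differences of MALAT1 were -0.05 in control cells (interval -0.16 to 0.07, adjusted p = 0.862) and -0.06 in knockdown cells (interval -0.17 to 0.06, adjusted p = 0.803). NEAT1 and MALAT1 thus took different orders over the groups. The ratio of NEAT1 to MALAT1 counts was 0.0395 ± 0.000683 in control DMSO libraries. It was 0.0263 ± 0.00186, 0.0252 ± 0.00209 and 0.0238 ± 0.00321 in control drug, knockdown DMSO and knockdown drug libraries, which overlapped one another.

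The promoters of MALAT1 are printed because MALAT1 was the member that rose, and those of RBM14 and HNRNPK because these fell furthest. They come from RefSeq on GRCh38.p14, in windows of 300 bases around each annotated start, on the gene's strand. Motifs in capitals were searched as exact letters on both strands in 35116 such windows. CCAAT occurred in 34.6% of the windows, GGGCGG (a GC box) in 45.0%, TATAAA in 11.5%, CACGTG in 7.26%, TGACGTCA in 1.85% and TGACTCA in 4.95%. Where matches lay in a window printed here, they were of a single motif and did not overlap another. The 7 genes gave 7 windows over 5 genes, while NEAT1 and SFPQ have no entry. The first MALAT1 window held 5 GC boxes and the second, for a start further downstream, held a single TATAAA. The RBM14 window held 3 CCAAT boxes, here read as ATTGG on the gene's strand. HNRNPK had 3 GC boxes at one start and 2 CCAAT boxes at the other. The windows not printed held 3 CCAAT boxes (NONO) and no match (PSPC1). A match describes the letters alone.
MALAT1 chr11:65497488-65497787 (+): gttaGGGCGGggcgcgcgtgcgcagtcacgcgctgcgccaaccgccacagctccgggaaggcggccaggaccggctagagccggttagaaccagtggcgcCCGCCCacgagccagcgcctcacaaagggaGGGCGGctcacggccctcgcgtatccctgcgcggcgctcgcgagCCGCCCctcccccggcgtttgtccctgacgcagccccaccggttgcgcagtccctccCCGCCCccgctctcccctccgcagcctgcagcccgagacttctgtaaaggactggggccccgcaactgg
MALAT1 chr11:65498795-65499094 (+): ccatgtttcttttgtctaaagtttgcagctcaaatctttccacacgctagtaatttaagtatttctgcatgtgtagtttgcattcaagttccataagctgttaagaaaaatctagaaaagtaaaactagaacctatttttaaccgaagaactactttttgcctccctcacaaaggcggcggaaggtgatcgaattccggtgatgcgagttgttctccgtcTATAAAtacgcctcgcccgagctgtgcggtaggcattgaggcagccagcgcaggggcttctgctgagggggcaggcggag
RBM14 chr11:66616380-66616679 (+): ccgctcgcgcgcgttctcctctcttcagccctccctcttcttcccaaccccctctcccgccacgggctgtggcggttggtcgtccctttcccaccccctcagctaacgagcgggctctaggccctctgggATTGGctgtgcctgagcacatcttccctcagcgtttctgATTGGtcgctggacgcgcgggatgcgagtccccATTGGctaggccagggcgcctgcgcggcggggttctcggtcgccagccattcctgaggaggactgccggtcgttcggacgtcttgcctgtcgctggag
HNRNPK chr9:83980566-83980865 (-): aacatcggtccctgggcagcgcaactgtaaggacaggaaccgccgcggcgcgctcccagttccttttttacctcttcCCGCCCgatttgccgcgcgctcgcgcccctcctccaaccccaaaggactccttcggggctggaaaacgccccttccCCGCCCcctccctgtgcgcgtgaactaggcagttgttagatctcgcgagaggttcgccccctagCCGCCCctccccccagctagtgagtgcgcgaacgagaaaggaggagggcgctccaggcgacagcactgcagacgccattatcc
HNRNPK chr9:83980166-83980465 (-): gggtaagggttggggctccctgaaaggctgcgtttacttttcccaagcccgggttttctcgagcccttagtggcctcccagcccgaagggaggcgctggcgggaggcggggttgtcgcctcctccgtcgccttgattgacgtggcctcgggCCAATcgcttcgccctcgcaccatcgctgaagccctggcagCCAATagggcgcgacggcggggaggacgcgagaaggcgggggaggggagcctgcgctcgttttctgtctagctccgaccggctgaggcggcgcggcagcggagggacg

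Across the members, the knockdown averaged over treatments raised 1 gene (MALAT1) and lowered 3 (SFPQ, HNRNPK and RBM14), while NEAT1, NONO and PSPC1 did not pass. That is 4 of 7, where 44.3% of all genes tested passed (21.7% higher and 22.6% lower), so the share lay near the background. Their median was -0.11, against 0.000749 over all genes. Scaling by library totals alone, which shifts the median of all genes by 0.05, gave 2 higher (MALAT1 and NONO) and 2 lower (HNRNPK and RBM14). The same scaling moved the whole table from 2732 higher of 5586 called to 3435 of 5658. In DMSO alone 4 of the 6 tested members passed, where 31.3% of all genes did (15.1% higher, 16.2% lower). Under drug 3 of 6 passed, where 31.1% of all genes did (14.8% higher, 16.3% lower).

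SFPQ, a DBHS protein that paraspeckles need to form, as they need NONO, fell slightly with the knockdown. It had 897, 956 and 944 CPM in control DMSO libraries and 961, 979 and 903 CPM in control drug libraries. In knockdown cells it had 826, 832 and 845 CPM in DMSO and 899, 880 and 890 CPM under drug. The groups did not overlap within either treatment. SFPQ fell by 0.13 averaged over treatments (SE 0.03, adjusted p = 0.00269), a change of -8.31%, and by 0.16 in DMSO (SE 0.05, adjusted p = 0.00956). Under drug the difference was -0.09 (interval -0.19 to 0.01, adjusted p = 0.147). The averaged call was lost under scaling by library totals (-0.07, adjusted p = 0.0771), and the DMSO call was lost without control DMSO replicate 2 (-0.14, 0.0541) or replicate 3 (-0.14, 0.0524).

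NONO, the partner with which SFPQ most often pairs, lay on the other side of 0. Its levels were 230, 228 and 224 CPM in control DMSO, 223, 232 and 230 CPM in control drug, 236, 245 and 249 CPM in knockdown DMSO, and 224, 263 and 240 CPM in knockdown drug libraries. The DMSO groups did not overlap, and the drug groups did. NONO's averaged knockdown difference was 0.09 (SE 0.04, interval 0.01 to 0.17, adjusted p = 0.0549), just short of the threshold. It passed under 9 of the 21 alternatives, with values from 0.09 to 0.14, among them library totals (0.14, adjusted p = 0.00252) and limma-voom (0.09, adjusted p = 0.0467). PSPC1, the third DBHS protein, had 65.2 to 72.6 CPM in control DMSO and 67.5 to 73.1 in control drug libraries, and 60.8 to 64.8 and 58.3 to 71.3 CPM in the knockdown libraries. Its averaged difference was -0.11 (SE 0.05, adjusted p = 0.0956). It passed only without knockdown drug replicate 2 (-0.14, adjusted p = 0.0396).

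Ratios of counts between the DBHS genes do not depend on how libraries are scaled, and were computed after the single genes had been seen. The ratio of NONO to SFPQ was 0.244 ± 0.0106 in control DMSO and 0.241 ± 0.0118 in control drug libraries. In knockdown libraries it was 0.292 ± 0.00487 in DMSO and 0.272 ± 0.0248 under drug (SD, n = 3 each). The knockdown raised it by 0.21 on the log2 scale (exact permutation test within treatments, 400 arrangements, two-sided p = 0.01, adjusted over 3 ratios 0.015). The ratio of PSPC1 to NONO fell by 0.20, from 0.299 ± 0.0146 and 0.305 ± 0.0117 in the control groups to 0.256 ± 0.00878 and 0.271 ± 0.00993 in the knockdown groups. No knockdown library reached the lowest control library for it (exact permutation test, p = 0.005, the smallest that 400 arrangements can give, adjusted 0.015). The ratio of PSPC1 to SFPQ differed by 0.02 (exact permutation test, p = 0.82). A ratio shows unequal change between its genes, not which of them changed.

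**Figure D3:**
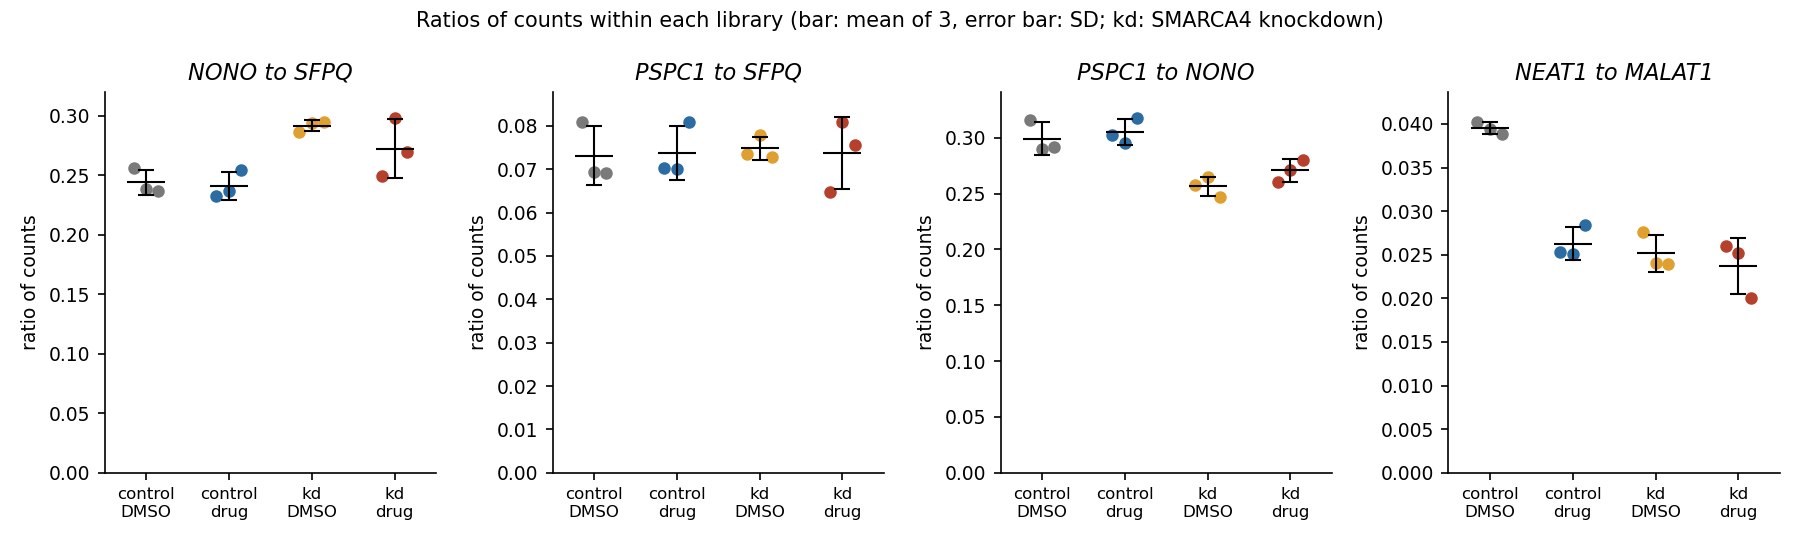
Ratios of raw counts within each library for the 3 DBHS pairs and for NEAT1 to MALAT1, vertical axes from 0. Points are libraries, horizontal bars the mean of 3 and error bars the SD. PSPC1 to NONO is lower in all 6 knockdown libraries, and NEAT1 to MALAT1 is highest in control DMSO libraries.

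HNRNPK, an RNA-binding protein that holds back the polyadenylation of short NEAT1, fell with the knockdown. It had 1646, 1667 and 1738 CPM in control DMSO and 1734, 1624 and 1719 CPM in control drug libraries. Knockdown libraries had 1511, 1496 and 1438 CPM in DMSO and 1490, 1432 and 1517 CPM under drug. No knockdown library reached the lowest control library. HNRNPK fell by 0.19 averaged over treatments (SE 0.03, adjusted p = 2.08e-05), a change of -12.3%, by 0.18 in DMSO (adjusted p = 0.00268) and by 0.19 under drug (adjusted p = 0.0018). The call under drug was lost with library totals (-0.11, adjusted p = 0.062).

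RBM14, a coactivator with a prion-like domain, had the largest fall among the members under the averaged knockdown. It had 65.0, 71.3 and 78.4 CPM in control DMSO libraries and 65.5, 58.9 and 71.6 CPM in control drug libraries. In knockdown DMSO libraries it stood at 58.4 CPM in each, a spread smaller than its counting error of 2.75% to 5.20% and so no measure of biological spread. Knockdown drug libraries had 48.6, 61.5 and 56.1 CPM and overlapped the control drug libraries. RBM14 fell by 0.26 averaged over treatments (SE 0.06, interval -0.38 to -0.14, adjusted p = 0.000401), a change of -16.7%. The fall was 0.29 in DMSO (adjusted p = 0.00561) and 0.24 under drug (adjusted p = 0.0315). The DMSO call was lost without control DMSO replicate 3 (-0.21, adjusted p = 0.0689). The drug call was lost under 6 alternatives, among them the removal of the library assigned by elimination (-0.24, adjusted p = 0.0702), of control drug replicate 3 (-0.16, 0.2), and of knockdown drug replicate 1 (-0.15, 0.246) or 3 (-0.24, 0.0573).

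None of the 6 members other than NEAT1 passed for the drug pair. In control cells 1.29% of all genes passed (0.738% higher, 0.555% lower), and in knockdown cells 1.29% (0.738% higher, 0.548% lower). The responses differed for 0.0238% (0.00794% higher, 0.0159% lower), and averaged over shRNAs 2.82% passed (1.43% higher, 1.4% lower). Each time it was 0 of 6 members by edgeR, at an unadjusted p below 0.05, by DESeq2 and by limma-voom. Their drug differences ran from -0.13 (RBM14) to 0.03 in control cells and from -0.07 (RBM14) to 0.09 (SFPQ) in knockdown cells. The intervals of the 2 largest were -0.30 to 0.04 for RBM14 in control cells and -0.00 to 0.19 for SFPQ in knockdown cells, where the libraries did not overlap (adjusted p = 0.513). Among these 6 the differences between the responses lay between -0.02 and 0.07. A missed threshold does not show that levels were equal.

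**Figure D4:**
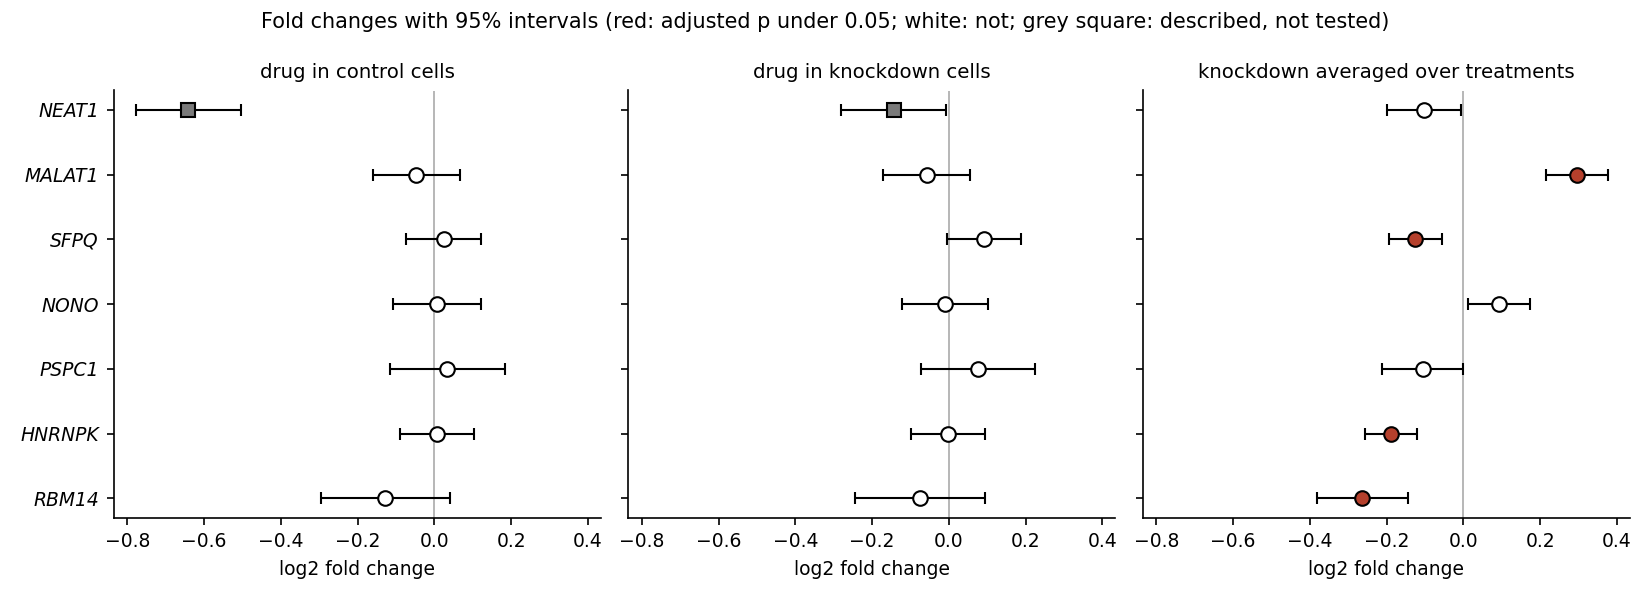
Log2 fold changes of the 7 genes with 95% intervals, for the drug in control cells, the drug in knockdown cells and the knockdown averaged over treatments. Red circles passed an adjusted p of 0.05, white circles did not, and grey squares (NEAT1, drug) are descriptions with no test. The intervals of the grey squares do not allow for the choice of NEAT1. MALAT1 lies to the right under the knockdown, at 0.30, and RBM14 furthest to the left, at -0.26.

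Among 29 other paraspeckle proteins tested, 12 fell and 2 rose with the knockdown averaged over treatments, and 15 did not pass. Over all genes 44.3% passed in this comparison, 22.6% lower and 21.7% higher. The median of the 29 was -0.09, against 0.000749 over all genes. Scaling by library totals gave 8 lower and 6 higher in their place. DAZAP1, an RNA-binding protein of the body, fell by 0.19 (SE 0.03, adjusted p = 3.83e-05), and CIRBP, a cold-inducible RNA-binding protein, by 0.35. The largest fall was that of BCL11A, a transcription factor of lymphoid cells, by 1.01 (SE 0.08, adjusted p = 1.27e-11). The 2 that rose, named after their values were seen, were RBM3, a cold-inducible relative of CIRBP, by 0.19 and SS18L1, a SWI/SNF subunit, by 0.43. These 5 genes kept direction and call under all 21 alternatives. With drug 0 of 29 passed in either cell type by edgeR, DESeq2 or limma-voom, where 1.29% of all genes passed by edgeR in each. At an unadjusted p below 0.05 it was 3 in control and 2 in knockdown cells.

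**Figure D5:**
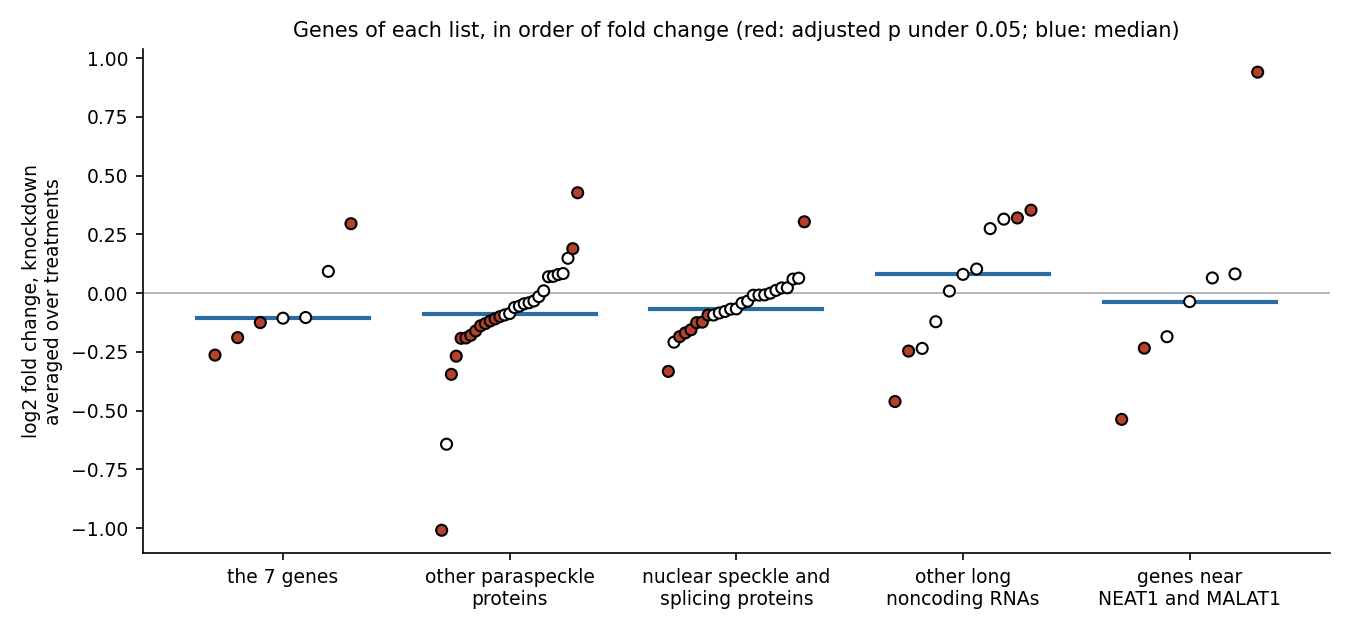
Log2 fold changes under the knockdown averaged over treatments for the 7 genes and 4 lists, each sorted by size. Red points passed an adjusted p of 0.05, white points did not, and blue bars are list medians. Most called points among the other paraspeckle proteins and the nuclear speckle proteins lie below 0.

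Of 7 SWI/SNF genes whose proteins have been placed in paraspeckles, 3 fell and 2 rose, where 44.3% of all genes passed. The knocked-down gene SMARCA4 is 1 of the 3. SMARCA2, the ATPase that can stand in for BRG1, fell by 0.47 (SE 0.05, adjusted p = 6.48e-09), and SMARCB1, a core subunit, by 0.20 (SE 0.05, adjusted p = 0.00077). ARID1B rose by 0.13 (adjusted p = 0.0359) and SMARCE1 by 0.13 (adjusted p = 0.0497). The call was lost under 8 of 21 alternatives for ARID1B and under 10 of 21 for SMARCE1. DESeq2 made neither call (0.13, adjusted p = 0.0582, and 0.13, 0.0735). Neither held without the library assigned by elimination (0.12, adjusted p = 0.0816, and 0.11, 0.138), nor without control DMSO replicate 3 (0.11, 0.09, and 0.11, 0.106). With drug 1 of these 7 passed by edgeR in knockdown cells and 0 in control cells, where 1.29% of all genes passed in each. It was SMARCC2, a scaffold subunit, which fell by 0.32 in knockdown cells (SE 0.08, adjusted p = 0.0429), a call that DESeq2 did not make. In control cells SMARCC2 changed by -0.07 (SE 0.09, adjusted p = 0.861). The difference between its responses was -0.25 (SE 0.12, adjusted p = 0.922), which did not pass.

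Nuclear speckle and splicing proteins, the neighbours of MALAT1, showed 7 of 25 lower and 1 higher with the knockdown, with a median of -0.07, where 22.6% of all genes were lower and 21.7% higher. Library totals gave 4 lower and 3 higher. U2AF2, which recognises the polypyrimidine tract, fell by 0.33 (SE 0.06, adjusted p = 8.82e-06), SRSF6 by 0.18 and SRSF7 by 0.17, both splicing regulators of the SR family. PNISR, an SR-related speckle protein, rose by 0.30 (SE 0.04, adjusted p = 5.04e-08). With drug 0 of 25 passed in either cell type by any of the 3 tools, where 1.29% of all genes passed by edgeR in each. At an unadjusted p below 0.05 it was 3 in each cell type.

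Of 11 other long noncoding RNAs tested, 2 rose and 2 fell with the knockdown, where 44.3% of all genes passed. LINC00657, also called NORAD, which binds Pumilio proteins, rose by 0.32 (SE 0.04, adjusted p = 2.23e-08), and TUG1 by 0.35 (SE 0.05, adjusted p = 1.96e-06). OIP5-AS1, also known as cyrano, fell by 0.25 (SE 0.04, adjusted p = 4.89e-06). Library totals gave 4 higher and 2 lower. With drug 0 of 11 passed in either cell type by any of the 3 tools, where 1.29% of all genes passed by edgeR in each. At an unadjusted p below 0.05 it was 1 in control and 3 in knockdown cells. The genes that neighbour NEAT1 and MALAT1 showed no shared direction: of 7 tested, 3 passed, where 44.3% of all genes did. TIGD3 rose by 0.94 (SE 0.11, adjusted p = 2.49e-08), EHBP1L1 fell by 0.54 (SE 0.09, adjusted p = 1.22e-05) and SSSCA1 fell by 0.23 (SE 0.09, adjusted p = 0.0318), while 4 did not pass, FRMD8, LTBP3 and SLC25A45 among them. The fall of SSSCA1 was lost under 12 of 21 alternatives, among them library totals (-0.18, adjusted p = 0.0931) and the removal of the library assigned by elimination (-0.23, adjusted p = 0.0589). With drug 0 of these 7 passed by edgeR in either cell type, where 1.29% of all genes did in each. By DESeq2 it was also 0, and at an unadjusted p below 0.05 0 in control and 1 in knockdown cells. The gene nearest to passing was FRMD8 in knockdown cells at 0.24 (SE 0.06, adjusted p = 0.0511), which limma-voom called.

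Over the 12 libraries, the genes whose log2 CPM most resembled that of NEAT1 were CDC5L (Pearson r 0.870), MTRR (0.835), LTV1 (0.823), LAMTOR5 (0.822) and GPHN (0.818), among genes whose log2 CPM averaged 3 or more. For the other members r was 0.368 with RBM14, 0.101 with HNRNPK, -0.01 with SFPQ, -0.04 with MALAT1, -0.10 with PSPC1 and -0.13 with NONO. With RN7SK it was -0.871 and with SCARNA2 -0.818. These values describe libraries that fall into 4 groups, so they mostly compare group means, and the genes were picked as the highest of the whole table.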

How the data were processed

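RNA of 12 libraries from 1 cell line was measured with a 3′ tag kit. Per the submitters' processing notes, bcl2fastq 2.17.1.14, HISAT2, HTSeq and the build hg19 were used; which annotation, strand setting and HISAT2 or HTSeq version applied is not given in the sources used here. Raw, unnormalized read counts per gene were deposited for 13820 genes. The lowest total of any gene was 13.

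Genes with at least 10 counts in the smallest group's number of libraries and 15 in all were kept (edgeR's filterByExpr): 12602 stayed and 1218 did not. Counts were scaled by TMM and fitted with 1 coefficient per group over all 12 libraries (edgeR 4.0.16 in R 4.3.3, glmQLFit and glmQLFTest, two-sided, Benjamini-Hochberg over all genes tested, threshold 0.05). The common biological coefficient of variation was 5.69%. Intervals use the fit's SE and 8 residual plus 22.5 prior degrees of freedom. The contrasts were tested on simulated data. Contrasts that share groups are not independent. How often the libraries of all genes separate between groups is not given here, so a lack of overlap describes the named genes alone. Alternatives were other scalings, other filters, DESeq2 1.42.0, limma-voom 3.58.1, a replicate block, removal of ribosomal and other RNAs without a tail, the 2 groups alone and each library left out. The removal of those RNAs together with library totals, the ratios of DBHS genes, and the alternatives for list counts and list genes were added after seeing the data.

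The members and all gene lists were chosen with earlier results of these data known. The rule for names took all 7 members, up to 4 genes per list and comparison by smallest adjusted p, RNAs without a tail beside NEAT1, and the 5 genes most correlated with NEAT1. Some items are not reported here. Counting error is 1 over the square root of the count and covers counting alone.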

Additional observations from a re-analysis of the deposited data

Results flagged for a closer look

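The drug response in reads differed between the shRNAs, by the test of the difference itself, for both large ribosomal RNAs. These RNAs have no poly(A) tail, and how far their reads follow their levels was not tested. RNA18S5, the 18S ribosomal RNA, had a difference of -0.55 (SE 0.08, edgeR quasi-likelihood test, adjusted p = 0.00203): it rose with drug by 0.27 in control cells (adjusted p = 0.00834, groups not overlapping) and fell by 0.28 in knockdown cells (adjusted p = 0.00474, groups not overlapping). The rise was not past the threshold without control DMSO replicate 1 (0.24, adjusted p = 0.068) or control drug replicate 1 (0.25, adjusted p = 0.0849), nor the fall without knockdown drug replicate 1 (-0.19, adjusted p = 0.0696). RNA28S5, the 28S ribosomal RNA, had a difference of -0.79 (SE 0.15, adjusted p = 0.048). Its drug change was 0.06 in control cells (adjusted p = 0.912) and it fell by 0.73 in knockdown cells (adjusted p = 5.64e-05). Knockdown replicates 1 to 3 had 18310, 17080 and 23980 CPM in DMSO, the last being the deepest library, and 9047, 14760 and 12110 CPM under drug. The call for the difference of RNA18S5 held under all 19 alternatives that keep it, with adjusted p up to 0.022 (5 CPM in 3 libraries). That for RNA28S5 was lost under 11 of 19, with values from -0.97 to -0.62 and adjusted p up to 0.851 (DESeq2).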

How the results depend on the processing

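Of 43 tested fold changes of the members, 33 kept their side of the threshold under all alternatives. None of the 11 that passed changed sign under any of them, while 14 that did not pass did. The 10 that changed side follow, and the cause was not tested. Averaged knockdown: SFPQ was -0.074 under library totals. NONO passed under library totals (0.14), no filter (0.10), 5 CPM in 3 libraries (0.10), limma-voom (0.093), removal of RNAs without a tail (0.10) and that removal with library totals (0.13). With 1 library left out NONO ran from 0.063 to 0.13, NEAT1 from -0.13 to -0.059 and PSPC1 from -0.14 to -0.059. Knockdown in DMSO: under the removal with library totals SFPQ was -0.12 and NONO 0.14. With 1 library left out SFPQ ran from -0.17 to -0.14 and RBM14 from -0.34 to -0.21. Knockdown under drug: library totals gave NONO 0.17, HNRNPK -0.11 and RBM14 -0.16, and the removal with library totals gave RBM14 -0.20. With 1 library left out RBM14 ran from -0.32 to -0.15.

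Of all genes, 163 passed for the drug in control cells, and 106 to 176 with 1 library left out (106 without control drug replicate 1). In knockdown cells it was 162, and 100 to 181 (100 without knockdown DMSO replicate 3, 102 without knockdown drug replicate 1). For the difference between the responses it was 3, then 1 with 5 CPM in 3 libraries, 0 after removal of RNAs without a tail, 0 with library totals as well, and 1 to 3 with 1 library left out. Library totals moved the share of higher calls: 74 of 159 for the drug in control cells, 132 of 185 in knockdown cells, and 2691 of 4138 for the knockdown under drug.

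Replicate numbers shared by the groups did not pair the libraries: deviations of same-numbered libraries correlated at -0.116 to 0.0821 over 18 pairs, and 4 of 12 libraries correlated best with their own number. With the replicate block NEAT1's averaged knockdown difference was -0.10 (adjusted p = 0.0771), no tested fold change of a member changed side, and 150, 147 and 2 genes passed for the drug in control cells, the drug in knockdown cells and their difference. NEAT1 was not among the 2. Among the members, depth limits RBM14 and PSPC1 most, with counting errors of up to 5.20% and 4.75%.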
